A study of Sinohyriopsis cumingii with 10 samples.

Results

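In the mussel Sinohyriopsis (Hyriopsis) cumingii, 31 contigs stood above all other times by a set margin at 2 and 6 h after implantation. The course had 10 times, and a minimum level at 2 and 6 h was also set. A contig is an assembled piece of a transcript. The 31 were selected on their measured levels from the 211508 contigs that could be read in all libraries. Levels were reads scaled to a library total of 1000000 (CPM), and the score of a contig was the lower of its log2(CPM + 1) values at 2 and 6 h minus the highest of the other 8. Members had a score of at least 1, at least 5 CPM at both 2 and 6 h, and a mean under 1000 CPM over all libraries. Of the contigs under that mean, 6814 had at least 5 CPM at both early times, and the 31 were 0.455% of them. The rule allowed up to 150 contigs, so no contig that met it was left out. Because it used the values of all 10 libraries, the levels below are a description and no test was made of them.

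When mantle tissue is grafted into a host mussel, its outer epithelium spreads into a closed pouch, the pearl sac, which secretes nacre. Bivalves have no antibodies, and their first defence at a wound is carried by haemocytes, circulating cells that gather at the injury, take up foreign material and help to close it. In animals in general, the first transcripts to respond to injury are often those of immediate early genes, which encode transcription factors and signalling proteins and are typically switched on and off quickly. The tables used here identify contigs by number, without gene names, and no contig sequences were analysed here, so none of the 31 was assigned to these or any other roles, and the labelled tissue was not checked against marker genes.

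The groups are 0, 2, 6, 12, 24, 48 and 96 h and 7, 14 and 30 d after implantation, with 1 library each. All animals were of like size, 2 years old and kept in tanks on algae, and every library is labelled as pearl sac. The labels leave unsaid which tissue was taken at 0 h and how many mussels went into a library, so differences between times and between animals cannot be told apart. Library totals lay between 20315910 and 24069268 reads. TMM factors, which rescale libraries so that most contigs keep their level, spanned 2.78-fold. The lowest factor belonged to 6 h (0.594) and the highest to 7 d (1.65), with 0.684 at 0 h, 0.733 at 2 h and 0.979 at 12 h. Values are in plain CPM unless TMM is named. Intervals are exact 95% counting intervals, which cover counting error only.

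The median level of the 31 contigs was low at 0 h, high at 2 and 6 h, and low again by 24 h, while single contigs among them kept higher levels at other times. This median was 2.12, 21.8 and 15.2 CPM at 0, 2 and 6 h, and 5.22 and 2.16 CPM at 12 and 24 h. It then lay between 1.33 and 2.45 CPM in each of the 5 libraries from 48 h to 30 d. Their share of all reads was 0.0201% at 0 h, 0.167% at 2 h and 0.157% at 6 h. By 12 and 24 h it was 0.0559% and 0.0176%. In a tissue sample, fewer cells of a type and less RNA per cell cannot be told apart. Behind these levels stood 123 to 13000 reads per contig at 2 h and 159 to 14483 at 6 h. Fewer stood behind 0 h, where 16 of the 31 had under 50 reads.

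**Figure D1:**
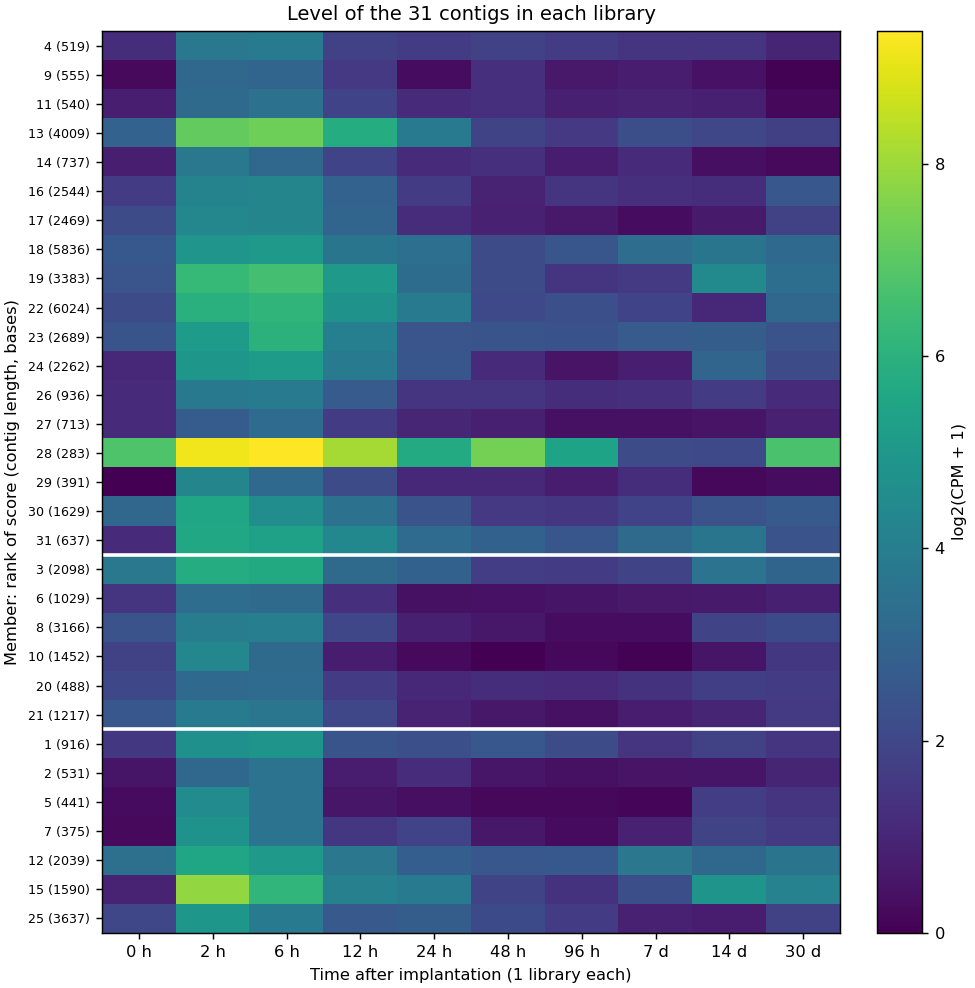
Level of each of the 31 contigs (rows) in each of the 10 libraries (columns), as log2(CPM + 1) by colour. Rows carry the rank of the score and the contig length in bases, and white lines separate contigs whose highest other library was 12 h (top, 18), 0 h (middle, 6) or a time from 24 h on (bottom, 7); the 2 and 6 h columns are the brightest of each row.

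The scores ran from 1.01 to 2.16 with a median of 1.24. Put as a plain CPM ratio, the lower early library exceeded the highest other library by a median of 2.56-fold, with a range of 2.06 to 6.14. The counting interval of that ratio lay above 1 for all 31 contigs and above 2 for 21. The spread between animals, which these intervals do not hold, was not measured.

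contig172063 (916 bases) had the highest score. It was at 1.90, 24.9 and 27.6 CPM at 0, 2 and 6 h, at 4.40, 3.95, 4.78 and 3.54 CPM at 12, 24, 48 and 96 h, and at 1.66, 2.47 and 1.69 CPM at 7, 14 and 30 d. In plain CPM the 2 early libraries lay far above the rest, those from 12 to 96 h formed a shelf, and 0 h, 7 d and 30 d were lowest. The shelf depends on the scaling. The TMM factors were 1.43 at 48 h and 1.27 at 96 h, against 0.684 at 0 h and 0.979 at 12 h. Under TMM the 48 and 96 h levels therefore lie lower against 0 and 12 h. Its level was 13.1-fold that of 0 h at 2 h (9.63 to 18.4) and 14.6-fold at 6 h (10.7 to 20.4). The 2 h to 6 h ratio was 0.901 (0.801 to 1.01), which did not separate these libraries in plain CPM, and 0.730 (0.649 to 0.821) under TMM.

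contig283721 (531 bases) had the second highest score. It was at 0.441, 7.91 and 10.9 CPM at 0, 2 and 6 h, at 0.628, 1.29, 0.464 and 0.345 CPM at 12, 24, 48 and 96 h, and at 0.415, 0.458 and 0.942 CPM at 7, 14 and 30 d. No library outside 2 and 6 h exceeded 1.29 CPM. The step from 6 to 12 h was 17.4-fold (9.98 to 33.1), and the 6 h level was above the 2 h level, with a 2 h to 6 h ratio of 0.724 (0.592 to 0.884), and of 0.587 (0.480 to 0.717) under TMM.

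contig277255 (2098 bases), the third by score, was already present at 0 h. It was at 12.6, 55.1 and 51.5 CPM at 0, 2 and 6 h, at 8.41, 6.52, 2.23 and 2.17 CPM at 12, 24, 48 and 96 h, and at 2.81, 10.9 and 7.06 CPM at 7, 14 and 30 d. The early libraries were 4.39-fold (3.86 to 5.01) and 4.10-fold (3.59 to 4.68) above 0 h. After the peak it did not stop at its 0 h level, since 12 h lay below 0 h with a ratio of 0.67 (0.55 to 0.81), and 14 d was again 3.86-fold above 7 d (2.90 to 5.20). Its levels at 2 and 6 h could not be separated in plain CPM, with a ratio of 1.07 (0.987 to 1.16), and under TMM 2 h was the lower, with a ratio of 0.868 (0.800 to 0.943).

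contig238485 (441 bases) was the fifth by score. It was at 0.22, 21.8 and 10.9 CPM at 0, 2 and 6 h, at 0.483, 0.291, 0.139 and 0.148 CPM at 12, 24, 48 and 96 h, and at 0.0923, 2.29 and 1.69 CPM at 7, 14 and 30 d. With only 5 reads at 0 h, its 2 h to 0 h ratio of 98.9 had a wide interval of 42.1 to 306. The step from 6 to 12 h was 22.5-fold (12.0 to 47.6), the steepest among the 31. The 7 d library held 2 reads and 14 d held 50, which put 14 d above 7 d by 24.8-fold (6.52 to 210.6).

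**Figure D2:**
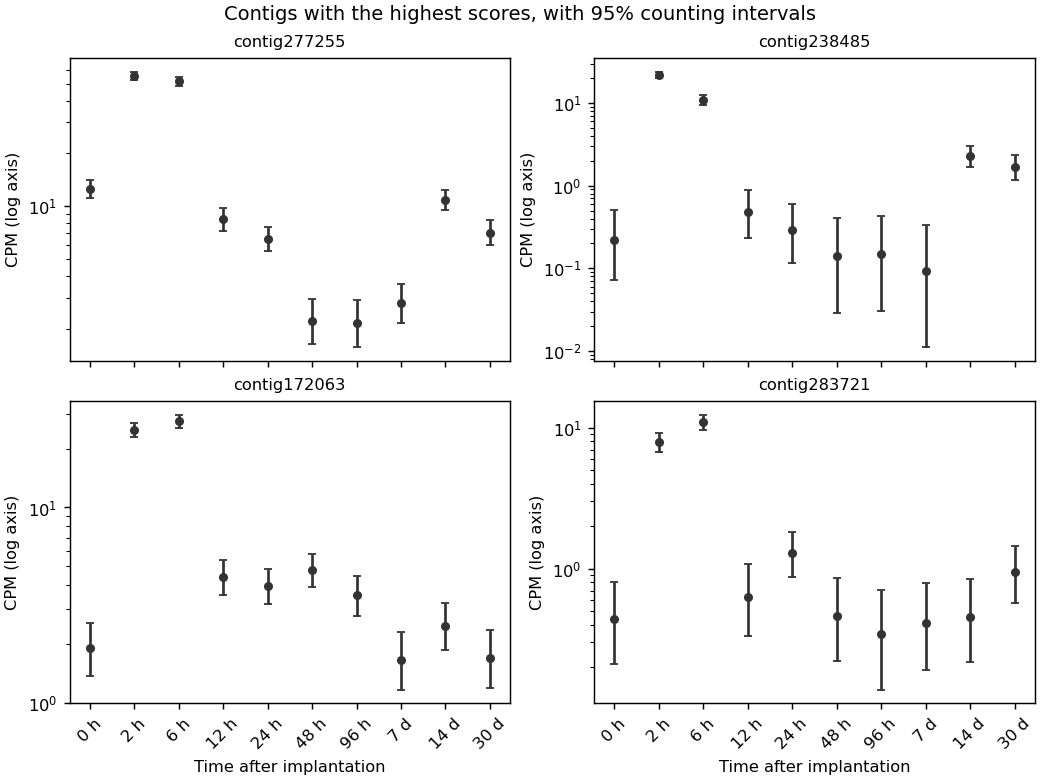
CPM (log axis) of the 4 named contigs in each library, with exact 95% counting intervals as bars. The upper contigs had the higher CPM at 2 h and the lower ones at 6 h, but the 2 h to 6 h ratios of contig277255 and contig172063 could not be separated from 1 in plain CPM, and under TMM contig277255 was higher at 6 h; contig277255 and contig238485 stood higher at 14 d than at 7 d, while the intervals of 7 and 14 d overlap for contig172063 and contig283721.

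Which of the early libraries was the higher depended on the scaling. In plain CPM 15 of the 31 were higher at 2 h and 16 at 6 h, beside 61.1% of the 6814 contigs with the same early minimum that were higher at 2 h. The counting interval of the 2 h to 6 h ratio lay above 1 for 10 contigs, beside 46% of the 6814, and below 1 for 9, beside 25.9%; it included 1 for 12. Under TMM 9 of the 31 were higher at 2 h, beside 39.2% of the 6814. With TMM the interval lay above 1 for 9 contigs, beside 25.8%, and below 1 for 18, beside 44.7%. For 21 contigs the 2 early levels were within 1.5 times of each other, a share close to the 66.3% of the 6814.

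In a few contigs the early libraries were far apart. In plain CPM 6 contigs had at least 2-fold their 6 h level at 2 h, beside 8.59% of the 6814, and none had the reverse, beside 4.65%. Under TMM these numbers were 2, beside 4.3%, and 1, beside 8.86%. The widest gap was that of the contig ranked 15 by score (1590 bases). It was at 0.926, 229 and 70.6 CPM at 0, 2 and 6 h, at 16.0, 13.3, 2.79 and 1.58 CPM at 12, 24, 48 and 96 h, and at 3.74, 28.3 and 16.9 CPM at 7, 14 and 30 d. Its 2 h level was 248-fold that of 0 h (162 to 401) and 3.25-fold that of 6 h (3.07 to 3.44), and 14 d was the highest of the remaining libraries. By 12 h these 6 contigs were at 2.22% to 18.5% of their 2 h level. At the other end, the contig ranked 23 (2689 bases) was at 4.36 CPM at 0 h, 35.0 at 2 h and 63.7 at 6 h, a 2 h to 6 h ratio of 0.549 (0.502 to 0.600), the lowest of the 31.

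**Figure D3:**
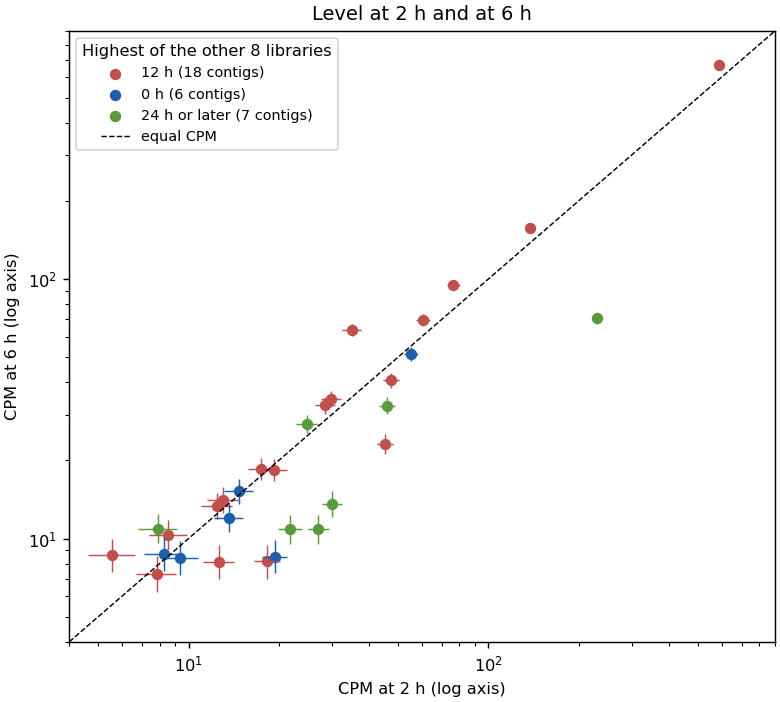
CPM at 2 h against CPM at 6 h for the 31 contigs (both axes log), with exact 95% counting intervals as bars and colours for the time of the highest other library. Most points lie near the dashed line of equal CPM, and the contigs with at least 2-fold more at 2 h lie well to its right.

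Against 0 h the size of the early excess varied widely among the contigs. At least 4-fold above 0 h on the log2(CPM + 1) scale were 26 of the 31 at 2 h and 22 at 6 h, beside 5.72% and 5.9% of the 6814 contigs with the same early minimum. The rule itself used these differences, so nothing is read from the gap. Over the 30 contigs with reads at 0 h, the plain ratio to 0 h ran from 2.64 to 248 at 2 h, with a median of 9.49, and from 2.49 to 76.3 at 6 h, with a median of 10.6. The contig ranked 29 (391 bases) had 0 reads at 0 h, 18.3 CPM at 2 h and 8.16 at 6 h. The exact counting intervals of its ratios to 0 h, which hold the counting error of both libraries, began at 112 for 2 h and 49.6 for 6 h. These lower ends do not cover the spread between animals. Under 1 CPM at 0 h were 8 contigs, and 26 were under 5 CPM. Shares of the 6814 under these limits were not computed. All comparisons with 0 h share the same single library.

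The rule places every member lower at 12 h than at 6 h, but the amounts were very different. The 6 h to 12 h ratio ran from 2.06 to 22.5 with a median of 3.70. The median difference of 12 h from 0 h was 1.07 on the log2(CPM + 1) scale, and 0.63 under TMM. At least 2-fold above 0 h at 12 h on the log2(CPM + 1) scale were 16 of the 31, beside 28.9% of the 6814 contigs, and 11 of the 31 beside 20.5% under TMM. For 24 h the median difference was 0.31, and 0.02 under TMM. The level was lower at 24 h than at 12 h in 28 contigs, beside 55.6% of the 6814, and under TMM also in 28, beside 54.4%. It became lower at both steps from 12 to 24 and 48 h in 18 contigs, beside 18.4%, and under TMM in 26, beside 31.4%. The rule left out contigs whose level at 12, 24 or 48 h came near or above that of 2 and 6 h. Selection thus partly sets the gaps of this paragraph to the 6814, and nothing is read from them.

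The time of the highest other library divided the contigs into 3 groups, the third a remainder of mixed times. Shares of the 6814 in such groups were not computed, so the group sizes cannot be set against the background. In 18 contigs the highest other library was 12 h, the next library after the early pair. In this group 12 h held 18.5% to 41.9% of the higher early level, with a median of 34.9%. The clearest case was the contig ranked 13 (4009 bases), at 6.74, 138 and 156 CPM at 0, 2 and 6 h, at 54.4, 13.5, 2.83 and 1.92 CPM at 12, 24, 48 and 96 h, and at 3.74, 2.98 and 2.45 CPM at 7, 14 and 30 d. Its level became lower at each step from 6 to 96 h and ended below that of 0 h.

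In 6 contigs the highest other library was 0 h itself, which by this grouping puts every later library from 12 h on below 0 h. Their group medians were 3.70, 14.1 and 10.3 CPM at 0, 2 and 6 h, 2.54, 0.831, 0.511 and 0.394 CPM at 12, 24, 48 and 96 h, and 0.600, 1.67 and 2.07 CPM at 7, 14 and 30 d. The contig ranked 10 (1452 bases) went lowest: it was at 2.60, 19.4 and 8.53 CPM at 0, 2 and 6 h, at 0.676 and 0.166 CPM at 12 and 24 h, had 0 reads at 48 h and 0.148 CPM at 96 h, and was at 0.0461, 0.458 and 1.84 CPM at 7, 14 and 30 d. Its libraries from 24 h to 7 d held at most 4 reads each.

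In the other 7 contigs the highest other library was 14 d (3 contigs), 24 h (2), 48 h (1) or 7 d (1). For those ranked 1, 2, 7, 12 and 25 its counting interval overlapped that of 12 h. The contig ranked 12 was at 12.225 CPM at 7 d and 12.222 at 12 h. Likewise the contig ranked 4, placed in the 12 h group, was at 2.512 CPM at 12 h and 2.507 at 48 h. The median 2 h to 6 h ratio of the other 7 contigs was 2.00 in plain CPM, against 0.902 in the 12 h group and 1.09 in the 0 h group. These medians were not computed under TMM. Under TMM the 3 groups had 18, 8 and 5 contigs. These groups were formed from the values themselves, so the differences between them were not tested.

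**Figure D4:**
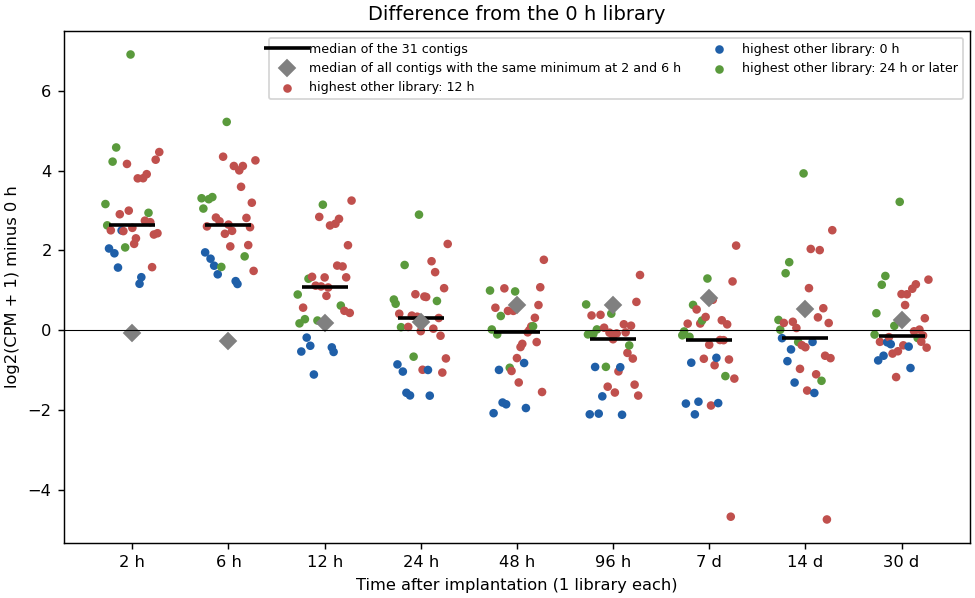
Difference of each of the 31 contigs from its 0 h level, in log2(CPM + 1), at the 9 later times; points are contigs coloured by the time of the highest other library and spread sideways by rank, black bars are their medians, and grey diamonds are medians of the 6814 contigs with the same minimum at 2 and 6 h. The black bars stand at 2.63 and 2.65 at 2 and 6 h and between -0.24 and -0.05 from 48 h to 30 d, while the diamonds lie above 0 from 12 h on in plain CPM, as plotted, and below 0 under TMM.

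From 48 h to 7 d many of the contigs were under their starting level. Below their 0 h CPM at 48 h, 96 h and 7 d alike were 13 of the 31, beside 16.5% of the 6814, and above it in all 3 were 8, beside 65%. The scaling moved these counts: under TMM 25 were below 0 h in all 3, beside 51.8%, and 3 above, beside 26.4%. The lowest library of the course was 1 of these 3 in 17 contigs, beside 12.3%, and 0 h in 5, beside 17.5%. With TMM these were 24, beside 29%, and 2, beside 8.89%. At least 2-fold below 0 h at 7 d were 8 of the 31, beside 8.44% of the 6814 contigs. Under TMM these were 15 of the 31, beside 26.7%. The median difference from 0 h at 7 d was -0.24 for the 31 and 0.82 for the 6814 in plain CPM, and -0.91 and -0.37 under TMM. By their medians the 31 lay below 0 h and below the 6814 in both scalings, while the median of the 6814 changed its sign. The rule left out contigs whose level at 48 h, 96 h or 7 d came near or above that of 2 and 6 h. It thus partly sets these gaps to the 6814, and nothing is read from them. At least 2-fold below 0 h at 48 and 96 h were 7 and 9 of the 31 in plain CPM, and 13 and 14 under TMM. Shares of the 6814 were not computed for these counts, so they cannot be set against the background. The median difference of the 6814 from 0 h at 48 and 96 h was 0.65 and 0.63 in plain CPM, and -0.35 and -0.21 under TMM.

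In some contigs 14 d stood above 7 d. The counting interval put 14 d above 7 d in 11 of the 31, or 35.5%, beside 29.5% of the 6814, a share near that of the background. It put 14 d below 7 d in 4, beside 54.8%. Under TMM these were 17, beside 50.1%, and 3, beside 32.6%. At least 2-fold above 7 d on the log2(CPM + 1) scale were 7 of the 31, beside 8.45% of the 6814, and under TMM also 7, or 22.6%, beside 16.8%. Among the 11, 14 d was also above 0 h in 7, and in 8 the 30 d level was below that of 14 d. Shares of the 6814 were not computed for these counts, so they cannot be set against the background. The median difference of the 6814 from 0 h at 14 and 30 d was 0.53 and 0.27 in plain CPM, and -0.20 and -0.24 under TMM. The contig ranked 19 (3383 bases) was at 4.54, 76.4 and 94.9 CPM at 0, 2 and 6 h, at 33.2, 8.89, 3.39 and 1.72 CPM at 12, 24, 48 and 96 h, and at 2.03, 21.8 and 9.37 CPM at 7, 14 and 30 d. Its 14 d level was 10.7-fold that of 7 d (7.86 to 14.9). The contig ranked 24 (2262 bases) took a like course, with 1.06, 29.9 and 34.6 CPM at 0, 2 and 6 h, with 13.2, 4.65, 1.21 and 0.394 CPM at 12, 24, 48 and 96 h, and with 0.738, 7.28 and 3.58 CPM at 7, 14 and 30 d. Its 14 d level was 9.87-fold that of 7 d (5.89 to 17.7). Over all 31, the 14 d level reached at most 35.1% of the higher early level, a ceiling that the score limit partly sets.

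A single short contig carried a large part of the reads. The contig ranked 28 (283 bases, the shortest of the 31) was at 111, 588 and 667 CPM at 0, 2 and 6 h, at 279, 52.7, 172 and 42.6 CPM at 12, 24, 48 and 96 h, and at 3.41, 3.21 and 101 CPM at 7, 14 and 30 d. It thus had a second, lower maximum at 48 h and was lowest at 7 and 14 d. In plain CPM its 30 d level (interval 96.9 to 105.5) lay slightly below that of 0 h (106.3 to 115.0). With TMM factors of 0.992 at 30 d and 0.684 at 0 h, it lies further below 0 h. Of the members' CPM it held 54.9%, 35.2% and 42.5% at 0, 2 and 6 h, 50.0%, 30.0%, 73.9% and 46.4% at 12, 24, 48 and 96 h, and 4.66%, 2.29% and 47.8% at 7, 14 and 30 d. Without it, the other 30 summed to 90.7, 1083 and 904 CPM at 0, 2 and 6 h, to 280 and 60.9 CPM at 12 and 48 h, and to 110 CPM at 30 d. The rule places each of these 30 higher at 2 and 6 h, so their sum had to be higher there too.

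Per base of length, using the authors' RPKM values, the same contig stood alone as well. It was at 2076 RPKM at 2 h and 2358 at 6 h, while the next highest were at 144 RPKM at 2 h, the contig ranked 15, and 64.0 at 6 h, the contig ranked 31. The median of the 31 was 1.35 RPKM at 0 h, 15.8 at 2 h and 15.9 at 6 h, and the lowest were at 4.64 at 2 h and 3.74 at 6 h.

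Length was not used by the rule. The 31 contigs had a median length of 1217 bases (quartiles 548 and 2507, range 283 to 6024), against 2765 (quartiles 1604 and 4328) for the 6814 contigs with the same early minimum. Shorter than 600 bases were 9 of the 31, beside 6.22% of the 6814, and at least 2000 bases long were 12, beside 66.3%. The gap was widest among weakly expressed contigs. Where the lower early level was 5 to 10 CPM, the 9 members had a median of 555 bases and the 2717 contigs of that class 2454. At 10 to 20 CPM the medians were 1217 for 9 members and 2978 for 1730 contigs, and at 20 CPM or more 2098 for 13 members and 3065 for 2367 contigs. Several short contigs can be pieces of 1 transcript, so 31 contigs need not be 31 genes, and the files do not show which belong together.

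Near the limit of the rule the scores ran on without a gap. The 3 members of lowest score, with 1.06, 1.05 and 1.01, were followed outside by contigs with 0.99, 0.95 and 0.91. The first of these was 3188 bases long, at 13.3 CPM at 2 h, 12.9 at 6 h and 6.00 at 14 d, its highest other library. The third was abundant, with 64.0, 693, 471 and 249 CPM at 0, 2, 6 and 12 h. Another 22 contigs had a score of at least 1 but were under 5 CPM at 2 or 6 h, and no contig was left out by its mean alone. Of the 166 contigs unreadable in the 30 d file, none met the rule over the other 9 libraries.

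The same rule with 12 and 24 h in the place of 2 and 6 h was met by 94 contigs, 0.968% of the 9710 with at least 5 CPM at both of those times. Their median score was 1.17 and the highest 1.82, against 2.16 in the early set. The later set was the larger in plain CPM and also under TMM, with 179 contigs against 81, and with DESeq2 size factors, with 173 against 80. The early set holds the contigs that met the rule at both 2 and 6 h, so each of these libraries alone could give no fewer. With 2 h alone and the 6 h library left out, 158 contigs met the rule, and with 6 h alone 81. The counts for the early pair and for 2 h or 6 h alone share the same 8 other libraries. For the 12 and 24 h set, the other 8 include 2 and 6 h. The differences between all these counts were not tested.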

How the data were processed

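RNA was sequenced in 10 libraries, 1 per time, from purified mRNA with random primers and PCR, per the labels' protocols. Each deposited file gives reads and RPKM for each contig, per the file headers. The assembler, the aligner and the counting program were not given in the sources used here. The deposited reads were handled like expected counts: they are whole numbers apart from 0.5, which stands wherever the authors' RPKM is 0 and was read as 0. Contig lengths were derived from reads, RPKM and library totals, and came out whole within a relative distance of 5.6e-08. In the 30 d file 1 damaged line replaces 166 contigs, holding 22413 reads by the RPKM total; they were left out of the selection.

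CPM used the sum of each file's reads column, and a prior of 1 CPM was added before log2. TMM factors (edgeR 4.0.16) and size factors (DESeq2 1.42.0, R 4.3.3) were computed on 52894 contigs and used for scaling only. Counting intervals are exact (Poisson, or conditional binomial for ratios; scipy 1.17.1); PCR copies are not independent molecules. No test was made, because each time has 1 library and the rule used all of them. The selection step was tested on simulated counts with counting error only, without spread between animals or shifts in scaling between libraries. The rule and the members were chosen with earlier results of these data known. At most 4 contig names are given, the highest scores among contigs lower and higher at 6 h than at 2 h in plain CPM; other contigs are identified by rank and length, and those described were chosen after their values were seen.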

Additional observations from a re-analysis of the deposited data

How the results depend on the processing

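The number of contigs meeting the rule, 31, was 81 with TMM scaling, 80 with DESeq2 size factors, 14 with a prior of 5 CPM, 68 and 1 with score limits of 0.5 and 2, and 53 with a minimum of 1 CPM. Leaving out single libraries gave 31 to 158: 158 without 6 h, 83 without 12 h and 81 without 2 h. The median score, 1.24, was 1.53 (TMM), 1.54 (DESeq2), 1.11 (prior of 5 CPM), 0.91 and 2.16 (score limits of 0.5 and 2), and 1.23 to 1.43 with a library left out. Contigs higher at 2 h than at 6 h, 15 in plain CPM, numbered 39 (TMM), 38 (DESeq2), 5 (prior of 5 CPM), 40 and 0 (score limits of 0.5 and 2), 30 (minimum of 1 CPM), and 15 to 46 with a library left out, 46 of them without 12 h. Each setting chose its members anew. All 31 were kept under both other scalings, 22 with a minimum of 10 CPM and 14 with a prior of 5 CPM. With each library left out all 31 were also kept. Apart from the setting without 6 h the rule fixes this, because leaving out a library cannot lower a score. Without 6 h, 158 contigs met the rule and the limit of 150 applied, so the ranks of the 31 also mattered there. A prior of 0.5 CPM (32 contigs), no upper limit on the mean, no limit on the number, 0.5 kept as such and the full 30 d total, added after seeing the data, gave 31 or 32 contigs. The same rule at 12 and 24 h, 94 contigs, gave 179 (TMM) and 173 (DESeq2), both also added after seeing the data. Of 128 values for the other results, 92 stayed within the set limit. In each case the cause was not tested. Low depth bears on the contigs with few reads outside 2 and 6 h most, where ratios have wide intervals.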
